A study of Mus musculus with 6 samples.

Results

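Cebpa, Cebpb, Cebpd, Cebpe, Spi1, Gfi1, Irf8, Klf4 and Myb encode transcription factors that guide myeloid progenitors toward granulocytes or monocytes, and these 9 genes, listed by name for that role with earlier results of these data known, are described here in Mll-AF9 leukemia cells of Rpl22+/+ and Rpl22-/- mice. They are 9 of 29374 genes with any estimated read, and all 9 were among the 16656 genes that passed the filter on low counts and were tested. RNA came from CD11b+Gr1+ spleen cells of tumor-bearing mice that carry the Mll-AF9 knockin, a fusion oncogene of acute myeloid leukemia, which both groups shared. One group of 3 libraries was Rpl22+/+ and the other group of 3 was labelled Rpl22-/-, for the gene of a protein of the large ribosomal subunit that also binds RNA. The comparison asks which transcripts differ between leukemias of the 2 genotypes. Per the study's methods, Rpl22+/+ and Rpl22-/- mice alike were backcrossed to C57BL/6, and purchased knockin mice were crossed with the Rpl22-deficient ones. The RNA was poly(A)-selected and sequenced from stranded libraries. A figure legend of the study names a single mouse identifier for each genotype, so p-values measure the spread between libraries, which may be technical, and a difference between genotypes cannot be told apart from one between individual leukemias.

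As background, PU.1 (the product of Spi1) and C/EBP alpha (Cebpa) establish the granulocyte and monocyte progenitor, and C/EBP alpha is needed for the step from the common myeloid progenitor. C/EBP epsilon (Cebpe) drives the late neutrophil program with its secondary granule proteins, C/EBP beta (Cebpb) acts in emergency granulopoiesis and in monocytes, and C/EBP delta (Cebpd) belongs to the acute inflammatory response. Gfi1 is a zinc finger repressor that favors the neutrophil fate, Irf8 and Klf4 favor the monocyte fate, and Myb keeps progenitors cycling and is lowered as myeloid cells mature.

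Libraries held 35828500 to 102866127 estimated reads, the smallest being Rpl22-/- replicate 1. Read numbers per member and library ran from 1737 to 44003. Rpl22 itself was at 148, 235 and 152 CPM (reads scaled to a common library total, corrected by TMM) in Rpl22+/+ and at 58.3, 89.9 and 73.5 CPM in Rpl22-/-, 2.41-fold lower in the mean (edgeR adjusted p = 0.0106). Reads of Rpl22 thus remained in every Rpl22-/- library, and whether they lie in the deleted part of the gene was not analysed here. Rpl22+/+ replicate 2 stood apart from its group, with a correlation of log2 CPM of 0.926 and 0.934 with the other two, which correlated at 0.992 with each other. Its deviation moved with base composition: its median log2 difference from the other two was -0.91, 0.061, 0.40 and 0.51 in 4 sets of 4164 tested genes ordered from the lowest to the highest GC content. Of the 9 members, 8 were at their highest in that library among the Rpl22+/+ libraries in CPM. Myb, the exception, was there at 0.698 of its mean in the other two. Its GC content of 46.7% puts it in the second of those sets, and the part of base composition in its low value was not tested. The sorted antigen CD11b was represented by Itgam at 1838, 2085 and 1861 CPM in Rpl22+/+ and 1036, 994 and 815 CPM in Rpl22-/-, and the Gr1 antigens by Ly6c2 at 768 to 1678 CPM in all libraries and Ly6g at 149 to 178 CPM in Rpl22+/+ and 11.1 to 15.7 CPM in Rpl22-/-.

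Markers of other cells were also read. Over all tested genes 13.7% rose and 13.8% fell, by the rule given below. Of 6 B cell markers, 1 fell and none rose, with summed levels of 579 to 731 CPM in Rpl22+/+ and 365 to 559 CPM in Rpl22-/-. All 6 T cell markers fell, from a sum of 41.0 to 55.5 CPM to one of 15.6 to 18.0 CPM. Of 6 NK cell markers 3 rose (13.2 to 20.4 CPM against 19.2 to 29.7 CPM). Of 7 erythroid markers 6 rose (83.3 to 125 CPM against 572 to 1134 CPM). Among 10 markers of macrophages and dendritic cells 4 rose and 2 fell (144 to 186 CPM against 99.7 to 149 CPM), and among 9 of eosinophils, basophils and mast cells 3 fell (27.2 to 33.9 CPM against 16.6 to 23.5 CPM). Of 5 megakaryocyte and platelet markers only 3 were expressed enough to be tested and none passed (3.17 to 5.13 CPM against 3.97 to 4.62 CPM), with the defining marker Pf4 at or near 0 CPM in every library. The part of these cells in the differences described here was not tested. In bulk RNA, more cells of a type and more RNA per cell cannot be told apart.

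Of the 9 transcription factor genes, Gfi1 and Myb rose in Rpl22-/- cells and none fell, and both changed by over 2-fold. Gfi1 was 4.60-fold higher and Myb 2.67-fold higher. The other 7 did not pass the threshold, an adjusted p under 0.05 in edgeR's quasi-likelihood test with Benjamini-Hochberg adjustment over all tested genes. Among all 16656 tested genes, 13.7% rose and 13.8% fell by that rule, 27.6% in either direction, and 8.93% rose and 8.54% fell by over 2-fold. Genotype groups did not overlap in CPM for 4 of the 9 (Cebpa, Spi1, Gfi1 and Myb), a share like that over all tested genes, of which 46.1% had groups that did not overlap. The median log2 fold change was -0.046 over the members and 0.066 over all tested genes.

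**Figure D1:**
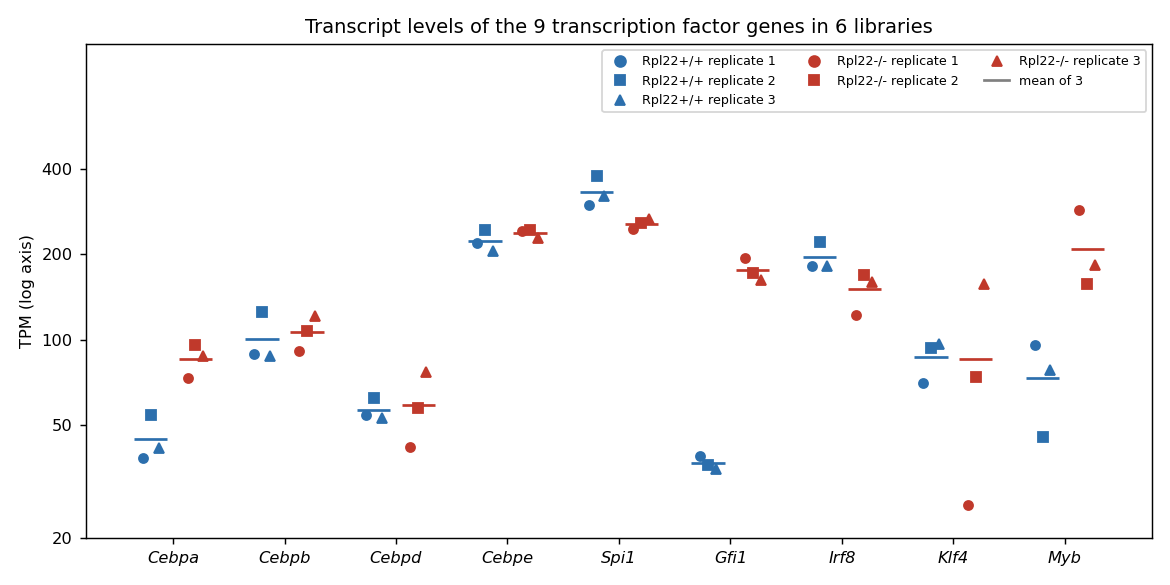
Level of each gene in TPM (abundance corrected for transcript length and scaled to a common total, log axis) in the 3 Rpl22+/+ libraries (blue) and the 3 Rpl22-/- libraries (red), with a symbol for each replicate and a line at each mean. Gfi1 and Myb in Rpl22-/- lie above all Rpl22+/+ libraries, and Klf4 spreads from 26.1 to 156 TPM within Rpl22-/-. The values of Spi1 leave out part of its transcripts.

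All 9 genes were well expressed. Their mean level in TPM over the 6 libraries lay above that of 85.9% (Cebpd) to 97.3% (Spi1) of the tested genes. Ordered by mean TPM in Rpl22+/+, Spi1 was at 331 ± 41.4 (SD, n = 3), Cebpe at 223 ± 19.4, Irf8 at 195 ± 23.0, Cebpb at 101 ± 21.3, Klf4 at 86.7 ± 14.3, Myb at 73.1 ± 25.4, Cebpd at 56.6 ± 5.13, Cebpa at 44.6 ± 8.31 and Gfi1 at 36.6 ± 2.03. Only 2 neighbouring steps in this order were separated without overlap between libraries, Spi1 above Cebpe and Irf8 above Cebpb. In Rpl22-/-, Gfi1 moved from the ninth place to the fourth and Myb from the sixth to the third. The Rpl22-/- order was Spi1 at 256 ± 10.5 TPM, Cebpe at 237 ± 8.58, Myb at 209 ± 68.9, Gfi1 at 176 ± 16.4, Irf8 at 150.1 ± 24.8, Cebpb at 107 ± 15.2, Cebpa at 85.5 ± 11.1, Klf4 at 85.4 ± 65.9 and Cebpd at 58.8 ± 17.7. Here the separated neighbours were Spi1 from Cebpe and Irf8 from Cebpb, and the ranges of Cebpe, Myb, Gfi1 and Irf8 overlapped from each to the next. Spi1 is undercounted in these values: its mean of normalised counts was 0.479 of the authors' own base mean, so part of the reads that the authors counted for Spi1 is missing here and its place at the top is that of a gene measured in part. For the other 8 members the same ratio was 0.978 to 1.00.

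Gfi1 (ENSMUSG00000029275, GRCm39 chr5:107864523-107873902, minus strand) showed the most distinct difference. It was at 61.3, 70.6 and 58.5 CPM in the 3 Rpl22+/+ libraries and at 306, 309 and 261 CPM in the 3 Rpl22-/- libraries. The groups were far apart, with the lowest Rpl22-/- library above the highest Rpl22+/+ library and little spread within either group. On the log2 scale the difference was 2.20 ± 0.15 (SE), with a 95% interval of 1.85 to 2.56 and an edgeR adjusted p of 0.000188. By unadjusted p Gfi1 ranked at 184 of the 16656 tested genes, and by size of increase at 662. It passed in all 16 alternative settings, with a log2 fold change of 2.10 to 2.28.

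Gfi1 has transcripts from more than one annotated start, and RefSeq (GRCm38.p6) gives a 300-base promoter window, 250 bases before and 50 after the start, for each of a pair of them. They are shown, 5′ to 3′ on the gene's strand, because both lie before transcripts that could be read separately, and the single RefSeq window of Myb stands beside them as that of the other gene that rose. RefSeq windows were found for 6 of the 9 members, 8 windows in all, and Spi1, Cebpd and Cebpe had no entry. Capitals mark matches on either strand to AACNG (Myb), TTGCNNAA (C/EBP), GAGGAA (PU.1) and AATCNNNGC (Gfi1), short forms of the motifs these factors are known to bind. On that build the upstream Gfi1 window is chr5:107725756-107726055, the downstream one chr5:107724294-107724593 and that of Myb chr10:21160935-21161234, all on the minus strand.
Gfi1 upstream: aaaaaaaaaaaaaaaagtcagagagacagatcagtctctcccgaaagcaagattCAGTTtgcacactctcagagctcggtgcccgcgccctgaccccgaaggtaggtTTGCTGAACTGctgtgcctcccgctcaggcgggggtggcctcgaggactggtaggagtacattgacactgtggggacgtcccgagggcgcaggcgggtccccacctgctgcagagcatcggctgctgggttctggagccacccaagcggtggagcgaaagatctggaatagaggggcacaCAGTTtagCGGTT
Gfi1 downstream: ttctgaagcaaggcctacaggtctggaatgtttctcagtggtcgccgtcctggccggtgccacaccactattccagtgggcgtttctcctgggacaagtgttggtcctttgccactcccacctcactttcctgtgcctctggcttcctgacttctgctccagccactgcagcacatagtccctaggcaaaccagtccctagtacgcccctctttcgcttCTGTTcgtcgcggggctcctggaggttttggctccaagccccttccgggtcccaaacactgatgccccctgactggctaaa
Myb: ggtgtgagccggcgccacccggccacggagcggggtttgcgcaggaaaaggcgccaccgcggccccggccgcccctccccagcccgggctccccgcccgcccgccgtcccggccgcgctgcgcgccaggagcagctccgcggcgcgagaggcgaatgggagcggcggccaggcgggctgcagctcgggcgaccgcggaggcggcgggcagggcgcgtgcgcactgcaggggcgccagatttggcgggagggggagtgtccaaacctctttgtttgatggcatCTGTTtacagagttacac

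Upstream of Gfi1, the C/EBP letters TTGCTGAA start 143 bases before the start site and overlap the Myb letters AACTG, which start 137 bases before it. The same window holds the Myb letters in 3 further places, at 196 bases before the start and 38 and 46 bases into the transcript. The downstream window and the window of Myb hold a single match each, also to AACNG. None of the 3 windows holds the PU.1 or Gfi1 letters. Of 32841 RefSeq windows of this length in the mouse, 80.3% hold AACNG, 10.8% TTGCNNAA, 28.3% GAGGAA and 10.3% AATCNNNGC, so that a match to the Myb letters is the usual case. A match is a description of the letters and not of binding.

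Transcripts from both the upstream and the downstream start of Gfi1 were higher in Rpl22-/-. Those that start in the upstream window (Gfi1-202, Gfi1-203 and Gfi1-204) summed to 28.2, 29.5 and 25.7 TPM in Rpl22+/+ and to 131, 131 and 129 TPM in Rpl22-/-, a ratio of means of 4.69. Gfi1-201, which starts in the downstream window, was at 10.7, 6.60 and 9.26 TPM and at 63.7, 40.2 and 33.4 TPM, a ratio of means of 5.18. Neither sum overlapped between genotypes (exact two-sided permutation p = 0.1 for each, the smallest that 3 against 3 libraries allow). The share of Gfi1 TPM from the downstream start was 24.1% ± 5.04 (SD, n = 3) in Rpl22+/+ and 25.6% ± 6.40 (n = 3) in Rpl22-/-, and the groups overlapped (exact permutation p = 0.9). The division between the starts thus varied more among libraries than between genotypes. An uncharacterised gene on the opposite strand, A430072P03Rik, overlaps Gfi1 and also rose, from 1.30, 1.04 and 1.06 CPM to 5.99, 5.25 and 5.35 CPM (log2 fold change 2.29, edgeR adjusted p = 0.000507). The strand setting of the quantification was not stated, so reads of this pair may be exchanged.

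**Figure D2:**
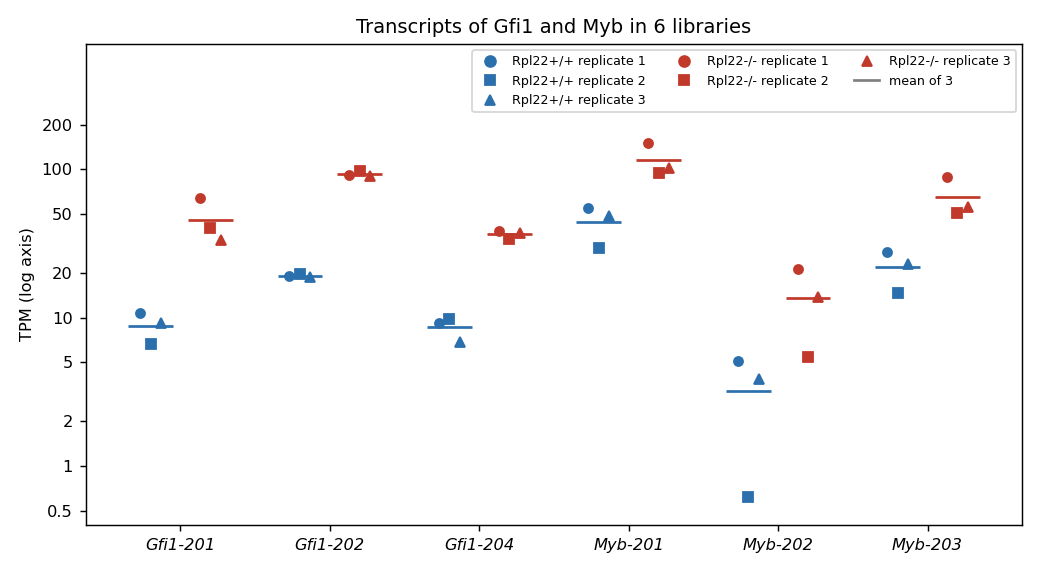
Level in TPM (log axis) of the transcripts of Gfi1 and Myb that made up at least 5% of their gene, in 3 Rpl22+/+ libraries (blue) and 3 Rpl22-/- libraries (red), with lines at the means. For each of the 6 transcripts the Rpl22-/- libraries lie above all Rpl22+/+ libraries.

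Myb (ENSMUSG00000019982, GRCm39 chr10:21000834-21036883, minus strand), the progenitor factor, was at 211, 138 and 186 CPM in Rpl22+/+ and at 611, 401 and 415 CPM in Rpl22-/-. All Rpl22-/- libraries lay above all Rpl22+/+ libraries, replicate 1 of Rpl22-/- being the highest and replicate 2 of Rpl22+/+ the lowest. The log2 fold change was 1.42 ± 0.24 (SE), with a 95% interval of 0.85 to 1.99 and an edgeR adjusted p of 0.00621. Like Gfi1, it passed in all 16 alternative settings, with a log2 fold change of 1.20 to 1.55. Myb-201, the most abundant form, was at 54.7, 29.3 and 48.2 TPM against 151, 95.0 and 101 TPM. Myb-203, which has 1 more exon (16 against 15), was at 27.7, 14.8 and 23.1 TPM against 89.1, 50.5 and 56.1 TPM. Its share of Myb TPM was 30.3% ± 1.83 (SD, n = 3) in Rpl22+/+ and 31.3% ± 0.795 (n = 3) in Rpl22-/- (exact permutation p = 0.5). A retained-intron form, Myb-202, held 3.86% ± 2.19 and 6.16% ± 2.32 of Myb TPM, with overlapping groups (exact permutation p = 0.3). An antisense gene that overlaps Myb, Gm26577, was at 2.71 to 4.62 CPM in Rpl22+/+ and 2.01 to 2.99 CPM in Rpl22-/- and did not pass (log2 fold change -0.63, edgeR adjusted p = 0.152).

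**Figure D3:**
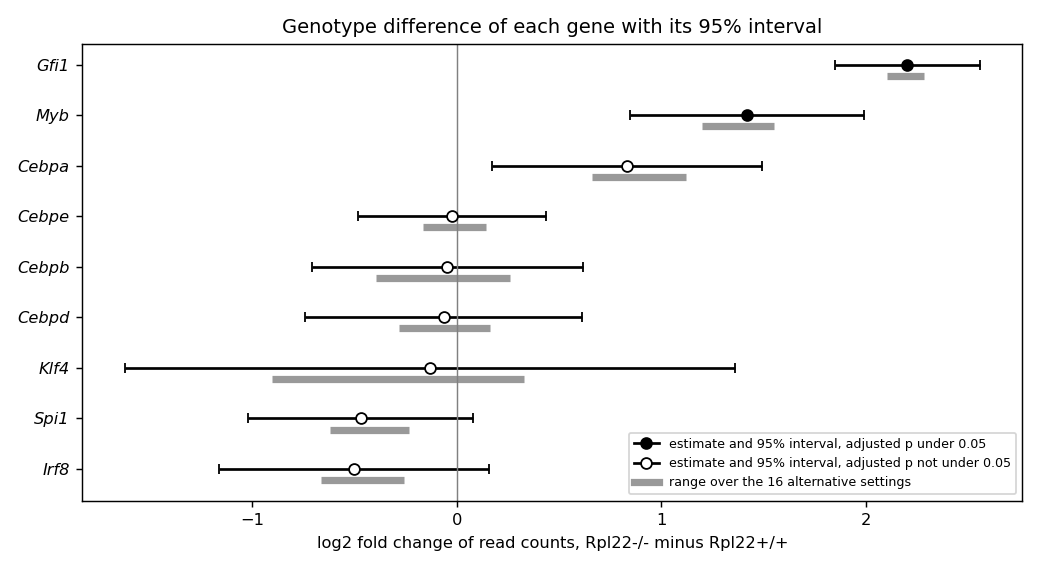
Log2 fold change of each gene, Rpl22-/- minus Rpl22+/+, from edgeR with its 95% interval (circle and bar; filled where the adjusted p is under 0.05), above the range of the estimate over 16 alternative settings (grey). The intervals of Gfi1, Myb and Cebpa, which are not adjusted for the number of genes tested, lie above 0 and those of the other 6 genes lie on both sides of it.

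Among the C/EBP genes, Cebpa (ENSMUSG00000034957, GRCm39 chr7:34818718-34821353, plus strand) was at 70.4, 130.1 and 76.7 CPM in Rpl22+/+ and at 131, 196 and 166 CPM in Rpl22-/-. The groups did not overlap, but the highest Rpl22+/+ library, replicate 2, came within 2 CPM of the lowest Rpl22-/- library. The log2 fold change was 0.83 ± 0.28 (SE, 95% interval 0.17 to 1.49), and the edgeR adjusted p of 0.0674 missed the threshold. The outcome depended on the setting: Cebpa passed in 9 of 16 alternatives, always as higher in Rpl22-/-. Without Rpl22+/+ replicate 2 the log2 fold change was 1.12 with an edgeR adjusted p of 0.00615, with an offset for GC content it was 0.67 with an adjusted p of 0.0128, and with limma on log2(TPM + 1) it was 0.93 with an adjusted p of 0.00957. With the replicate number as a block it was 0.87 with an adjusted p of 0.00890, and whether the numbers pair the libraries was not settled. Over the 16 alternatives its adjusted p ran from 0.00265 (the block with the GC offset) to 0.207 (without Rpl22+/+ replicate 3).

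Cebpe (ENSMUSG00000052435, GRCm39 chr14:54947817-54949631, minus strand), the factor of late neutrophils, differed least of the 9 genes between its highest and its lowest library. It was at 178, 257 and 170.4 CPM in Rpl22+/+ and at 189, 218 and 188 CPM in Rpl22-/-. All Rpl22-/- libraries lay inside the range of the Rpl22+/+ libraries. The log2 fold change was -0.024 ± 0.19 (SE), the edgeR adjusted p was 0.948, and the 95% interval of the fold ran from 0.714 to 1.35. Cebpb (ENSMUSG00000056501, GRCm39 chr2:167530835-167532338, plus strand) was at 90.2, 165 and 90.9 CPM and at 88.9, 121 and 125 CPM, with overlapping groups, a log2 fold change of -0.046 ± 0.28 and an adjusted p of 0.929. With the GC offset it reached -0.39 with an adjusted p of 0.0491, so its call depends on the treatment of base composition. Cebpd (ENSMUSG00000071637, GRCm39 chr16:15705150-15708895, plus strand) was at 147, 219 and 146 CPM and at 108, 171 and 210.1 CPM, with overlapping groups, a log2 fold change of -0.064 ± 0.28 and an adjusted p of 0.899. The intervals of Cebpb and Cebpd run over folds of 0.612 to 1.53 and of 0.599 to 1.53, so that differences of this size are not excluded for them. Both are overlapped by a gene on the opposite strand. Spidr, over Cebpd, fell (log2 fold change -0.72, edgeR adjusted p = 0.00577), and Tmem189, over Cebpb, did not pass (-0.37, adjusted p = 0.154). Reads of these pairs may be exchanged, as for Gfi1.

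The C/EBP genes were also taken as a pool. Cebpa, Cebpb, Cebpd and Cebpe summed to 400.3, 486 and 388 TPM in Rpl22+/+ and to 447, 504 and 513 TPM in Rpl22-/-, with overlapping ranges. Cebpe made up 52.6% ± 2.25 (SD, n = 3) of that sum in Rpl22+/+ and 48.8% ± 4.80 (n = 3) in Rpl22-/-. The share of Cebpa was 9.59%, 11.1% and 10.7% in Rpl22+/+ and 16.5%, 19.0% and 17.0% in Rpl22-/-, and it was the only one of the 4 shares whose groups did not overlap. Cebpb held 23.5% ± 1.96 and 21.8% ± 1.69 and Cebpd 13.4% ± 0.437 and 11.9% ± 2.88. Within Rpl22-/-, the share of Cebpd varied the most relative to its mean, being lowest in replicate 1.

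Spi1 (ENSMUSG00000002111, GRCm39 chr2:90912735-90946101, plus strand) could be read only in the transcripts matched here. These were at 235, 401 and 253 CPM in Rpl22+/+ and at 192, 228 and 221 CPM in Rpl22-/-. The groups did not overlap, though the lowest Rpl22+/+ library was close to the highest Rpl22-/- library. The log2 fold change was -0.47 ± 0.23 (SE, 95% interval -1.02 to 0.077) and the edgeR adjusted p was 0.183. With the GC offset the log2 fold change was -0.51 and the adjusted p 0.0115, and without Rpl22+/+ replicate 2 they were -0.23 and 0.206. The forms from the upstream start of Spi1, Spi1-204 and Spi1-202, held 19.4%, 19.5% and 22.1% of the matched Spi1 TPM in Rpl22+/+ and 11.3%, 15.8% and 14.5% in Rpl22-/-, a share that did not overlap between genotypes (exact permutation p = 0.1, the smallest possible). For the share of Spi1-204 alone the exact permutation p was also 0.1, and 0.433 after Benjamini-Hochberg adjustment over 13 shares tested. The unmatched transcripts could change both the level and these shares.

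Of the monocyte factors, Irf8 (ENSMUSG00000041515, GRCm39 chr8:121463097-121483433, plus strand) was at 335, 565 and 353 CPM in Rpl22+/+ and at 216, 360 and 309 CPM in Rpl22-/-. Only Rpl22-/- replicate 2 reached into the range of the Rpl22+/+ libraries. The log2 fold change was -0.50 ± 0.28 (SE, 95% interval -1.16 to 0.16), with an edgeR adjusted p of 0.235. Irf8 was lower in Rpl22-/- under all 16 alternatives and passed in 1 of them, the replicate block with the GC offset, with an edgeR adjusted p of 0.0178. With the block alone the adjusted p was 0.0555. Leaving out 1 library gave log2 fold changes of -0.66 (without Rpl22-/- replicate 2) to -0.26 (without Rpl22+/+ replicate 2, the highest library).

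Klf4 (ENSMUSG00000003032, GRCm39 chr4:55527143-55532466, minus strand) was at 139.6, 249 and 204 CPM in Rpl22+/+ and at 46.4, 164 and 331 CPM in Rpl22-/-. Replicate 1 of Rpl22-/- was the lowest and replicate 3 of Rpl22-/- the highest of all 6 libraries, 7.12-fold apart, so the genotype means of 197 ± 55.1 (SD, n = 3) and 180.3 ± 143 CPM (n = 3) say little. The log2 fold change was -0.13 ± 0.63 (SE), with an edgeR adjusted p of 0.908 and an interval of the fold from 0.325 to 2.57. The SD of its log2 CPM was 0.42 in Rpl22+/+, above that of 66.8% of tested genes, and 1.43 in Rpl22-/-, above that of 98.2%. For the other 8 members the SD within Rpl22-/- was 0.12 (Cebpe) to 0.49 (Cebpd). Rpl22-/- replicate 1 was also the library with the fewest reads. Without it the log2 fold change of Klf4 was 0.33, and without replicate 3 of Rpl22-/- it was -0.90.

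Further transcription factors varied between the Rpl22-/- libraries as Klf4 did. Of 42 further factors of granulocytes and monocytes, 16 had their lowest Rpl22-/- level in replicate 1 and their highest in replicate 3, over 2-fold apart, as did 4.68% of all tested genes. Junb, an immediate early AP-1 subunit, was the gene with the profile most like that of Klf4 (398, 743 and 477 CPM in Rpl22+/+ and 162, 458 and 806 CPM in Rpl22-/-).

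The likeness of profiles was taken as the root mean square difference of log2 CPM centred over the 6 libraries, among 11707 named genes with a mean of at least 50 reads. Junb differed from Klf4 by 0.19, a wider gap than that of any other member to its nearest gene. Those were Imp3 for Cebpa (0.066), F8a for Cebpb (0.053), Otud1 for Cebpd (0.059), Colgalt1 for Cebpe (0.017), Aldoa for Spi1 (0.017), Synj2 for Gfi1 (0.082), Rps7 for Irf8 (0.051) and Khdc3 for Myb (0.075). Synj2 shared the difference of Gfi1, at 6.38, 6.66 and 5.80 CPM in Rpl22+/+ and at 32.5, 28.7 and 28.1 CPM in Rpl22-/-. Khdc3 shared that of Myb, at 6.69, 3.85 and 5.85 CPM and at 17.4, 11.7 and 11.8 CPM. Within the 9, Spi1 and Irf8 were the closest pair (0.15), followed by Cebpb and Cebpd (0.17), while Gfi1 and Myb were each other's nearest member at 0.50. All these profiles share the libraries and, with them, the deviation of Rpl22+/+ replicate 2.

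Ratios between members within a library do not depend on the scaling of the library. Gfi1 to Irf8, a neutrophil against a monocyte factor, was 0.215, 0.163 and 0.192 in TPM in Rpl22+/+ and 1.59, 1.01 and 1.02 in Rpl22-/-. The groups were far apart, and the log2 ratio was higher by 2.64 in Rpl22-/-, a 6.25-fold difference. Gfi1 to Spi1 was 0.131, 0.0957 and 0.109 in Rpl22+/+ and 0.793, 0.666 and 0.611 in Rpl22-/-, higher by 2.63 on the log2 scale, with Spi1 measured in part. Myb to Cebpe, an early against a late factor, was 0.436, 0.187 and 0.381 in Rpl22+/+ and 1.19, 0.646 and 0.806 in Rpl22-/-, higher by 1.44 on the log2 scale. In these 3 ratios every Rpl22-/- library lay above every Rpl22+/+ library. Gfi1 and Myb, their first genes, had already risen, and the genes they are set against did not pass. Gfi1 alone differed by 2.20 on the log2 scale of read counts. The ratios thus largely restate the rises of Gfi1 and Myb and are not separate evidence.

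The ratios to Cebpa were lower in Rpl22-/-. Cebpe to Cebpa was 5.70, 4.51 and 4.97 in Rpl22+/+ and 3.27, 2.55 and 2.60 in Rpl22-/-, a log2 difference of -0.85. Cebpb to Cebpa was 2.32, 2.32 and 2.12 and then 1.24, 1.13 and 1.39, also a log2 difference of -0.85. Spi1 to Cebpa, with Spi1 measured in part, differed by -1.31. None of these groups overlapped. All 3 ratios have Cebpa as the denominator, and its TPM was itself higher in every Rpl22-/- library. They largely restate the level of Cebpa, which did not pass, and are not separate evidence for it. Cebpd to Cebpb (log2 difference -0.079, exact permutation p = 0.7) and Klf4 to Irf8 (0.025, exact permutation p = 0.9) had overlapping groups. For the 6 ratios without overlap the exact two-sided permutation p was 0.1, the smallest that 3 against 3 libraries allow, and 0.133 after Benjamini-Hochberg adjustment over the 8 ratios, so that none could pass.

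**Figure D4:**
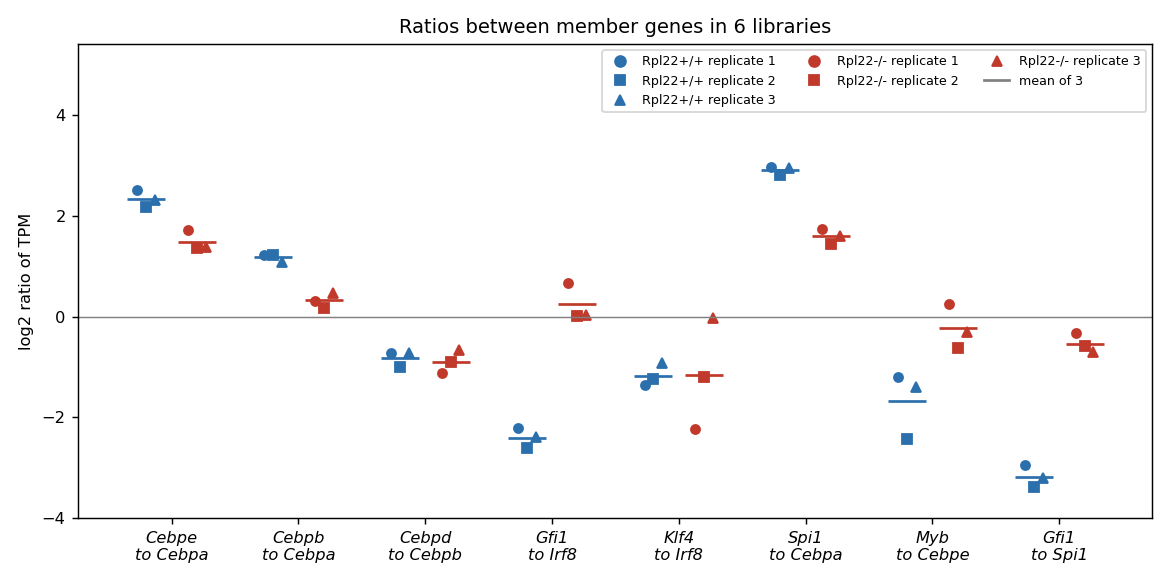
Log2 ratio of TPM between pairs of member genes in the 3 Rpl22+/+ libraries (blue) and the 3 Rpl22-/- libraries (red), with lines at the means. Gfi1 to Irf8, Gfi1 to Spi1 and Myb to Cebpe lie higher in every Rpl22-/- library and the 3 ratios to Cebpa lie lower, while Cebpd to Cebpb and Klf4 to Irf8 overlap. Spi1 is measured in part.

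Among 7 further genes, 6 of the C/EBP and related basic leucine zipper families and Cebpz, which shares the name but belongs to another protein family, Hlf fell and the other 6 did not pass, with a median log2 fold change of -0.19. Over all tested genes 13.8% fell. Hlf, a factor of hematopoietic stem cells, was at 2.98, 2.20 and 2.58 CPM in Rpl22+/+ and at 1.07, 0.599 and 0.491 CPM in Rpl22-/- (log2 fold change -1.87 ± 0.35, edgeR adjusted p = 0.00963). The groups did not overlap, at a level near 1 CPM or below in Rpl22-/-. The log2 fold changes of the others were -0.31 for Cebpg, 0.65 for Cebpz, 0.66 for Ddit3, -0.19 for Nfil3, 0.36 for Dbp and -0.29 for Tef, with adjusted p from 0.113 to 0.720 in edgeR.

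Of 42 further transcription factors listed for the granulocyte and monocyte lineages, 6 rose, 5 fell and 31 did not pass, with a median log2 fold change of -0.13. These counts are near the shares over all tested genes, of which 13.7% rose and 13.8% fell. Those that rose were Nab2, Spic, Sox4, Id2, Etv6 and Xbp1, and those that fell were Rara, Irf5, Stat5b, Spib and Ikzf1. Spib fell by 0.84 on the log2 scale and Pax5, the only 1 of 6 B cell markers to fall, by 0.81. The part of B cell RNA in the fall of Spib was not tested. Rara, the retinoic acid receptor of neutrophil maturation, was at 106, 166 and 124 CPM in Rpl22+/+ and at 36.1, 44.6 and 44.3 CPM in Rpl22-/- (log2 fold change -1.66 ± 0.20, edgeR adjusted p = 0.00178). Irf5, an interferon regulatory factor of monocytes, was at 120, 216 and 146 CPM and at 41.8, 68.7 and 64.7 CPM (-1.46 ± 0.29, adjusted p = 0.0108). Spic, a relative of Spi1, rose by 1.45 ± 0.31 on the log2 scale (adjusted p = 0.0152) from a low level of 0.392 to 0.574 CPM to one of 1.00 to 1.53 CPM, and lost its call without Rpl22+/+ replicate 1 (adjusted p = 0.0592) or Rpl22-/- replicate 2 (0.0691). The values of Ikzf1 cover 0.396 of the authors' base mean.

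Cofactors of the 9 genes were mixed. Of 20, 4 rose, 3 fell and 13 did not pass, with a median log2 fold change of 0.0025. Over all tested genes 13.7% rose and 13.8% fell. Gata2, a partner in progenitors, was at 4.10, 4.55 and 3.39 CPM in Rpl22+/+ and at 14.0, 19.6 and 16.8 CPM in Rpl22-/- (log2 fold change 2.06 ± 0.20, edgeR adjusted p = 0.000710). Hdac1, Hdac2 and Kdm1a, which form corepressor complexes recruited by Gfi1, rose, Hdac1 by 0.85 ± 0.17 on the log2 scale (adjusted p = 0.0133), while Rcor1 of the same complex fell by 0.44. Hdac1 lost its call without Rpl22+/+ replicate 1 (adjusted p = 0.0539) or replicate 3 (0.0677). Trib2, which promotes the breakdown of C/EBP alpha, fell by 0.94 ± 0.21 (adjusted p = 0.0189), as did Cop1, its partner, by 0.53. Trib2 lost its call without Rpl22+/+ replicate 1, Rpl22-/- replicate 1 or Rpl22-/- replicate 3 (adjusted p = 0.0676, 0.0609 and 0.0766).

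The known targets of the 9 factors were counted in lists written from general knowledge but with earlier results of these data known, so that their counts are descriptions and not independent evidence. For comparison, 13.7% of all tested genes rose and 13.8% fell. All 10 C/EBP epsilon and secondary granule targets fell, 9 of them by over 2-fold, with a median log2 fold change of -1.57, while Cebpe itself did not pass. Ltf (lactoferrin) was at 10140, 13396 and 9919 CPM in Rpl22+/+ and at 2288, 2253 and 1304 CPM in Rpl22-/-, and the collagenase Mmp8 and the gelatinase Mmp9 fell by 3.79 and 3.36 on the log2 scale (edgeR adjusted p = 0.000332 and 0.000330). Of 11 targets of C/EBP factors and PU.1, all receptors or surface proteins other than the granule enzyme Mpo, 6 fell and 2 rose. Fcgr1 and Fcgr3, Fc receptors, fell by 2.46 and 1.51 on the log2 scale, whereas Tlr4 and Mpo were the ones that rose.

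Of 12 genes held to be Myb targets, 7 rose, all by over 2-fold, 1 fell and 4 did not pass, with a median log2 fold change of 1.33. Gfi1 is one of those 7 and also one of the 9 factors, and Mpo is one of those 7 and also one of the 2 C/EBP and PU.1 targets that rose, so both are counted under 2 headings, as are Id2 (further factors and genes repressed by Gfi1) and Csf1r (C/EBP and PU.1 targets and Irf8 and Klf4 targets). Elane (neutrophil elastase), Mpo (myeloperoxidase) and Prtn3 (proteinase 3) of the primary granules rose by 3.48 ± 0.27, 2.99 ± 0.28 and 2.86 ± 0.28 on the log2 scale (edgeR adjusted p = 0.000330, 0.000663 and 0.000710). Myc, Kit and Cd34 completed those that rose. Hdac9, with values covering 0.735 of the authors' base mean, was the one that fell.

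Among 9 genes that Gfi1 is known to repress, none fell, 1 rose and 8 did not pass, with a median log2 fold change of 0.38. In 5 of them the lowest Rpl22-/- library was replicate 1 and the highest replicate 3, over 2-fold apart. Of all tested genes 4.68% did so, and the genotype means of these 5 say little. Id2, an inhibitor of helix-loop-helix factors, was at 72.8, 76.0 and 77.3 CPM in Rpl22+/+ and at 147, 165 and 151 CPM in Rpl22-/- (log2 fold change 1.04 ± 0.12, edgeR adjusted p = 0.00140). Irf8 stands in this list too and did not pass. Of 12 monocyte targets of Irf8 and Klf4, 4 fell, none rose and 8 did not pass, with a median log2 fold change of -0.66. Ccr2, the monocyte chemokine receptor, was at 428, 217 and 499 CPM in Rpl22+/+ and at 139, 127 and 162 CPM in Rpl22-/- (-1.42 ± 0.31, adjusted p = 0.0164). Ctss (cathepsin S) and Csf1r (the receptor of macrophage colony-stimulating factor) fell by 1.16 and 1.08. Each of the 3 lost its call when certain libraries were left out: Ccr2 without any 1 library other than Rpl22+/+ replicate 2 (edgeR adjusted p from 0.0501 to 0.0865), Ctss without Rpl22+/+ replicate 3 (0.0538) or Rpl22-/- replicate 3 (0.0543), and Csf1r without Rpl22+/+ replicate 3 (0.0664), Rpl22-/- replicate 1 (0.102) or Rpl22-/- replicate 3 (0.0836).

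**Figure D5:**
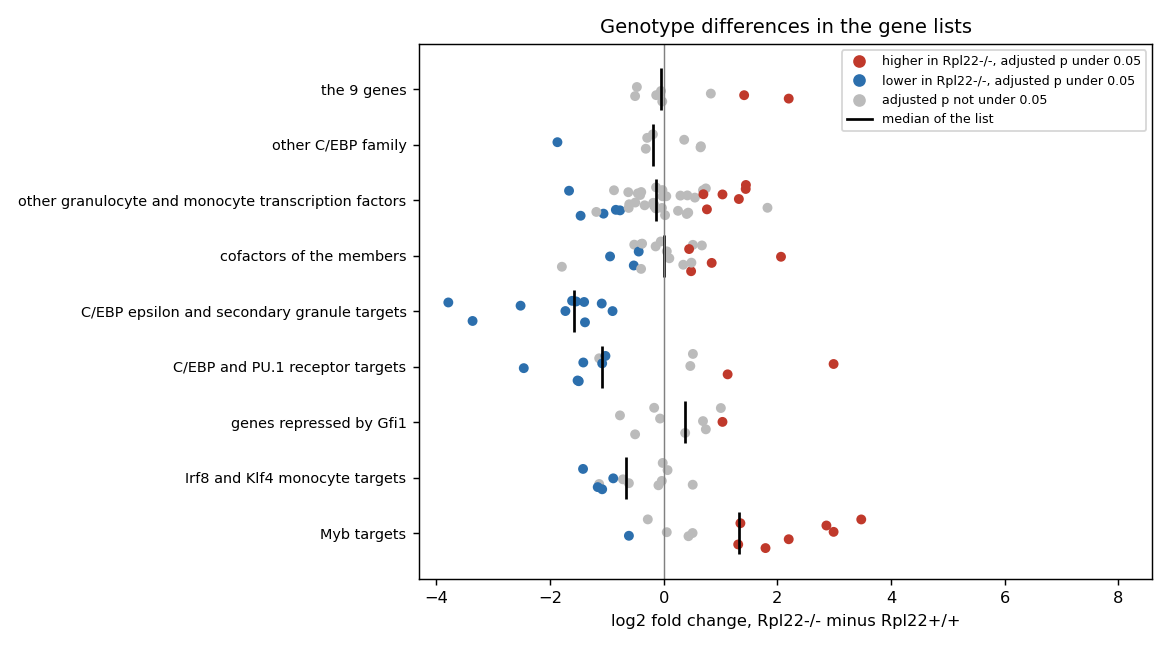
Log2 fold change, Rpl22-/- minus Rpl22+/+, of each tested gene in the 9 lists (points, spread vertically for clarity), red where higher and blue where lower with an adjusted p under 0.05 in edgeR and grey otherwise, with a black line at each list's median. The secondary granule targets lie below 0 throughout and the Myb targets lie mostly above it.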

How the data were processed

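Per the study's methods, the authors used Trimmomatic for trimming and Salmon for transcript quantification (versions not given in the sources used here), and the deposited files give an estimated count and TPM per transcript and library. The authors also deposited a DESeq2 table whose base mean signal and GRCm39 positions were used here. Its fold changes, standard errors, statistics and p-values were not used. Estimated counts and TPM were summed to genes with GENCODE vM21 by unversioned transcript name: 136036 of 276623 transcripts matched, with 98.0% to 98.1% of reads, and counts were rounded. Genotypes were compared with edgeR 4.0.16 (filterByExpr, TMM, quasi-likelihood F test, genotype as the only term; limma 3.58.1 and DESeq2 1.42.0 as alternatives, R 4.3.3), which was tested on simulated data first. The alternatives changed the scaling, filter, unit, test, GC or length offset and replicate block, or left out 1 library. The SE is the one implied by F. "Rose" and "fell" mean an adjusted p under 0.05. Ratios and transcript shares (transcripts of at least 5% of their gene) had exact permutation tests (scipy 1.17.1). The members and lists were chosen with earlier results of these data known. In 2 lists, the genes repressed by Gfi1 and the megakaryocyte and platelet markers, 1 gene each is not reported here, for a reason unrelated to its values, and is left out of the list's count and median. Named genes are the 9 members and, in the factor, cofactor and target lists (not the cell markers), all genes of lists of up to 7, from each other list the 3 most changed genes that passed and had separate groups, and the nearest profile of each member. Others are named after their values were seen, where counts are small.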

Additional observations from a re-analysis of the deposited data

How the results depend on the processing

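Gfi1 and Myb kept their direction and their call under all 16 alternatives. Cebpa, Spi1 and Irf8 kept their direction under all 16, and passed in 9, 2 and 1 of them. With no change near 0 to begin with, Cebpb turned to 0.093 (log2(TPM + 1)) and 0.094 (log2(TPM + 0.1)), Cebpd to 0.015 in both, and Cebpe to 0.091 in both and to 0.0086 with no filter on low counts. Leaving out 1 library gave log2 fold changes of -0.20 to 0.26 for Cebpb, -0.28 to 0.16 for Cebpd, -0.14 to 0.14 for Cebpe, -0.90 to 0.33 for Klf4 and -0.55 to 0.039 for Nfil3. With a GC offset 2 members (Cebpb and Spi1) and 11 of the further transcription factors (the 42 and the 7 listed beside the C/EBP genes) fell, against 0 and 6. Leaving out 1 library gave 3 to 7 further factors that rose, against 6, and 15 to 26 genes of the cofactor and target lists that fell, against 23. Over all genes it gave 1175 to 3540 that rose and 1392 to 3311 that fell, against 2288 and 2306, with the most calls without Rpl22+/+ replicate 2 (6851 in all). On log2(TPM + 1) 3227 rose and 2115 fell, and on log2(TPM + 0.1) 3135 and 2101.

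Replicate numbers are shared between genotypes. Same-numbered libraries deviated together with correlations of 0.479, 0.634 and 0.0974 over all 16656 tested genes, and 0.570, 0.715 and 0.129 over the 13202 with a mean of at least 50 reads. In both sets of genes Rpl22+/+ replicate 3 correlated more with Rpl22-/- replicate 1 (0.357 over all tested genes and 0.43 in the second set) than with its own number. Pairing was therefore not settled, and the fit without the block was kept. With a replicate block 3 members rose (Cebpa with adjusted p 0.00890) and none fell, and 2943 genes rose and 2688 fell in all. The replicate block with the GC offset gave 3 members that rose and 3 that fell (Cebpb, Spi1 and Irf8), 13 further factors that fell, 20 genes of the cofactor and target lists that rose, against 13, and 3878 genes that rose and 3691 that fell. No cause was tested.

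Among ratios, Klf4 to Irf8 turned to -0.0061 in CPM, and leaving out 1 library gave -0.54 to 0.56 for it and -0.20 to 0.036 for Cebpd to Cebpb. Among transcript shares, in percentage points, Gfi1-202 turned to -1.03 as a share of estimated reads, and leaving out 1 library gave -1.17 to 3.38 for it, -2.06 to 4.05 for Gfi1-201 and -5.05 to 0.723 for Klf4-201. All other ratios and shares kept their direction. With 3 libraries a genotype, the width of the intervals limits what can be said of the uncalled members.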
